A study of Mus musculus with 14 samples.

Results

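The genes described here are 10 genes by which radial glia, the stem cells of the embryonic cortex, are commonly recognised: Pax6, Sox2, Nes, Vim, Fabp7, Slc1a3, Hopx, Aldoc, Ddah1 and Ptprz1. They were chosen by name, with earlier results of these data known. All probe sets that the platform annotation pairs with exactly 1 of these symbols were taken, 31 of the 45037 probe sets on the array. Levels were measured in GFP-positive cells of CD1 mouse embryos. A plasmid had been injected into the lateral ventricle at E14.5 and driven into the cells lining it by in utero electroporation, and the cells were then sorted by FACS. The 4 groups were Fezf2GFP and CtrlGFP at 24 h, with 3 arrays each, and Fezf2GFP and CtrlGFP at 48 h, with 4 arrays each, where the hours count from electroporation. The study asks what the transcription factor Fezf2, which specifies deep-layer projection neurons, changes in progenitors at a stage when they mainly make upper-layer neurons. All 4 groups share the strain, the electroporation, GFP, the sort and 2 rounds of in vitro transcription of the RNA. The promoter that drives the vectors was not stated in the labels. They also do not tell whether replicate arrays hold different litters, and p-values then measure only the spread between these arrays, which may be technical.

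Radial glia line the ventricle, divide there, and send a long fibre to the outer surface along which newborn neurons migrate. They give rise to neurons directly or through intermediate progenitors, and later to astrocytes. Daughter cells that leave this state lose many of its transcripts as neuronal ones appear. The 10 genes cover different sides of the state, from the transcription factors Pax6 and Sox2 to filament proteins, a fatty acid binding protein, a glutamate transporter, a receptor phosphatase and 2 enzymes.

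Values are log2 levels as processed with GCRMA by the authors. Of the 31 probe sets, 20 lay above a dim level of 4 on at least 3 of the 14 arrays and were tested, and 11 were set aside (4 of Pax6, 1 of Nes, 3 of Slc1a3, 1 of Aldoc and 2 of Ddah1). Each gene is represented by the probe set whose mean over the 14 arrays was highest, and all 10 genes were tested this way among 10295 genes. "Passed" means an adjusted p under 0.05 (limma, Benjamini-Hochberg over all genes tested). Array medians lay between 3.26 and 3.50, and arrays of 1 group correlated at 0.942 to 0.993. CtrlGFP 24 h replicate 1 and CtrlGFP 48 h replicate 2 stood apart from the other arrays of their groups, with the highest 2 medians and deviations that correlated at 0.593 with each other. The probe set of Fezf2 itself went against the labels: at 24 h it averaged 9.44 ± 0.11 (SD, n = 3) on the arrays labelled Fezf2GFP and 11.30 ± 0.42 (SD, n = 3) on those labelled CtrlGFP, a difference of -1.86 on that scale (SE 0.38, limma adjusted p = 0.0324). At 48 h it averaged 9.33 ± 0.70 (SD, n = 4) on the arrays labelled Fezf2GFP and 10.15 ± 0.48 (SD, n = 4) on those labelled CtrlGFP (adjusted p = 0.239). The labels do not tell whether this probe set covers the part of the transcript carried on the plasmid, so it may check nothing, and every direction between the vectors below rests on the labels.

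The 250 bases before the annotated starts of the 4 genes that passed between the vectors at 48 h are shown because these are the promoters of the genes whose levels differed. They come from RefSeq (GRCm38.p6), which gave 13 such windows for the 10 genes. Each reads 5′ to 3′ on the gene's strand, and capitals mark matches on either strand to 5 motifs chosen after the expression values were seen.
Nes window 1, chr3:87970843-87971092 (+): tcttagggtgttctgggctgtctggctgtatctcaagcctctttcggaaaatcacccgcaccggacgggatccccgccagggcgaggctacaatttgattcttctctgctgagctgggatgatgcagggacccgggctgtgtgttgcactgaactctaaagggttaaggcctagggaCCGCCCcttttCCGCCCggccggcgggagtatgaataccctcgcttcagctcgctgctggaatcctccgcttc
Ddah1 window 1, chr3:145758442-145758691 (+): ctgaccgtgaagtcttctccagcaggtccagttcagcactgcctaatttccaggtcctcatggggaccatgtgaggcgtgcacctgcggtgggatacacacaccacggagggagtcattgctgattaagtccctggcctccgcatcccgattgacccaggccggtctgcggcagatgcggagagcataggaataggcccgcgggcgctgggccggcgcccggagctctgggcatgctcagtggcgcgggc
Aldoc window 1, chr11:78322823-78323072 (+): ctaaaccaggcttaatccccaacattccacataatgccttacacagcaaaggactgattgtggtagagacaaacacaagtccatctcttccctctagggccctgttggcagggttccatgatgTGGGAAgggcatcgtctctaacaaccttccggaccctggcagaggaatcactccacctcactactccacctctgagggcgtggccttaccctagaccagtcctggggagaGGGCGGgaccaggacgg
Aldoc window 2, chr11:78323948-78324197 (+): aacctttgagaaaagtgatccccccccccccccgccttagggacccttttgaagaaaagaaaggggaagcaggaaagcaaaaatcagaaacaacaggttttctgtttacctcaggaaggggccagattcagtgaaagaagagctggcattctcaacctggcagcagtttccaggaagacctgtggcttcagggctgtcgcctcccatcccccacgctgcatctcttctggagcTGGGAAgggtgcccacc
Hopx window 1, chr5:77115124-77115373 (-): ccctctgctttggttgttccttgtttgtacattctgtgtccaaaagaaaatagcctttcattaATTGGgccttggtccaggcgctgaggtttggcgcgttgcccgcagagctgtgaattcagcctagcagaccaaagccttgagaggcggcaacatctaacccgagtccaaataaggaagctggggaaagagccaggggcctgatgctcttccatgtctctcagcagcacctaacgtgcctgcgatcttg
Hopx window 2, chr5:77095268-77095517 (-): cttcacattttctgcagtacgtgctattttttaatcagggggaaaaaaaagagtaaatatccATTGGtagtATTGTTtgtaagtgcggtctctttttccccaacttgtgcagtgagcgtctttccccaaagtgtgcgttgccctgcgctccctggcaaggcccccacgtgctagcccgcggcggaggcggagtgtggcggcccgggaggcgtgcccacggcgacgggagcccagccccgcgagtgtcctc
The motifs were the TATA box (TATAAA), the CCAAT box (CCAAT), the GC box (GGGCGG), the core bound by the Notch effector RBPJ (TGGGAA) and the core bound by SOX factors (AACAAT). No motif is contained in another. Over all 32851 windows these letters occur in 12.4%, 33.8%, 32.7%, 21.6% and 9.42%, in the order named. Among the 13 windows of the 10 genes they occur in 2, 7, 5, 3 and 1. The Nes window holds 2 GC boxes. The window of Ddah1 holds none of the 5. Both Aldoc windows hold an RBPJ core, and 1 of them a GC box. Both Hopx windows hold a CCAAT box, and the second also the single SOX core found. A match is a description of letters and not of a bound site.

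At 48 h, Nes, Aldoc and Ddah1 were higher and Hopx was lower on the arrays labelled Fezf2GFP than on those labelled CtrlGFP. These are 4 of the 10 genes, beside 3.13% of all genes tested (2.7% higher and 0.427% lower). Because the list was chosen with earlier results of these data known, the shares describe it and are not independent evidence. Nes had the largest rise, 2.47-fold, and Hopx the only fall that passed, 4.87-fold. At 24 h, 0 of the 10 passed (limma), beside 1.06% of all genes. At that time 2, Nes and Hopx, had an unadjusted p under 0.05, beside 911 of all 10295 genes tested. Both passed when arrays were weighted by their spread, a setting whose share of all genes is not given here. The arrays of 4 genes did not overlap at 24 h (Nes and Ptprz1 higher, Vim and Hopx lower, beside 19.6% of all genes). At 48 h those of 4 did not overlap, all higher with Fezf2GFP (Nes, Slc1a3, Aldoc and Ddah1), beside 9.07% of all genes and 7.35% in that direction. The median log2 fold change of the 10 genes was 0.17 at 24 h and 0.54 at 48 h, beside 0.06 at each time for all genes tested. At both times 8 of the 10 fold changes were above 0, and those of Vim and Hopx were below 0. In sorted bulk RNA, more cells of a type and more RNA per cell cannot be told apart.

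**Figure D1:**
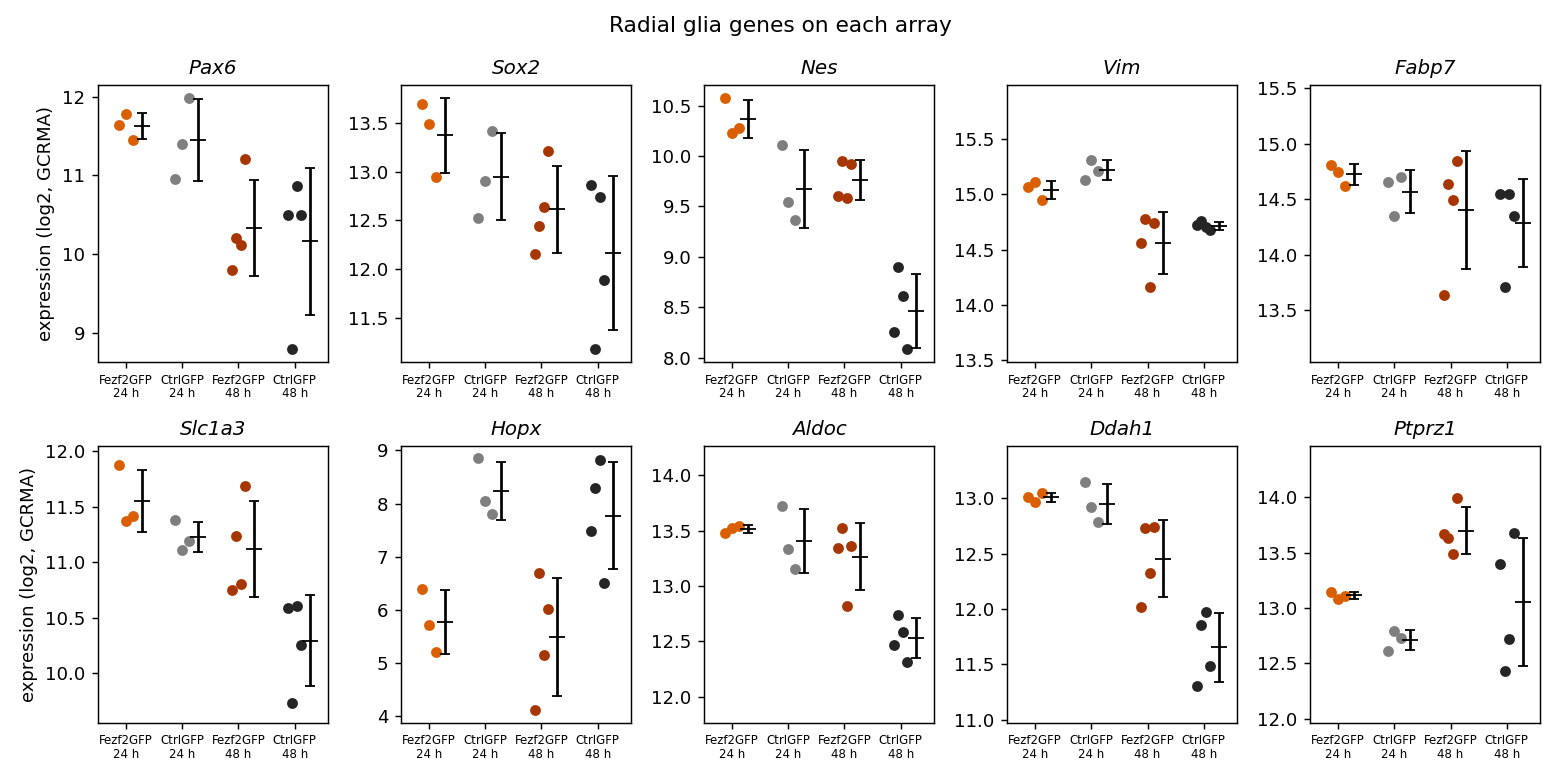
Log2 level (GCRMA) of the chosen probe set of each of the 10 genes on each array, 1 panel per gene with its own axis; points are arrays, and the bar beside them is the mean with the SD of the group (n = 3 at 24 h, n = 4 at 48 h). At 48 h the Fezf2GFP points of Nes, Slc1a3, Aldoc and Ddah1 lie above every CtrlGFP point, and those of Hopx reach lowest, down to 4.11.

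Pax6 and Sox2 are the transcription factors of the set. Pax6 drives cortical progenitor identity and neurogenesis, and Sox2 keeps neural stem cells in a proliferating state. At 48 h, Pax6 (1419271_at) read 9.79, 10.21, 10.11 and 11.21 on the arrays labelled Fezf2GFP, against 10.50, 8.79, 10.87 and 10.50 on those labelled CtrlGFP. The groups overlapped throughout, and the lowest value belonged to CtrlGFP replicate 2, 1 of the 2 arrays that stand apart. The log2 fold change was 0.17 (95% interval -0.74 to 1.07, limma adjusted p = 0.902) at 48 h. It was 0.18 at 24 h (95% interval -0.87 to 1.23, adjusted p = 0.915). Without the 2 arrays that stand apart these became -0.29 at 48 h and -0.07 at 24 h. The sign at 48 h also turned without Fezf2GFP replicate 4, the highest array, so the sign for Pax6 rests on single arrays. Sox2 (1416967_at) averaged 12.61 ± 0.45 with Fezf2GFP and 12.17 ± 0.79 with CtrlGFP at 48 h (SD, n = 4 each). Its log2 fold change was then 0.45 (95% interval -0.34 to 1.23, adjusted p = 0.633). At 24 h it averaged 13.37 ± 0.39 with Fezf2GFP and 12.95 ± 0.45 with CtrlGFP (SD, n = 3 each, adjusted p = 0.757). Neither factor passed at either time, and the intervals of both allow a difference of more than 1 on the log2 scale.

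Nes and Vim encode the intermediate filament proteins of the radial fibre, nestin and vimentin, which assemble with each other. Nes (1449022_at) read 9.61, 9.95, 9.58 and 9.92 at 48 h on the arrays labelled Fezf2GFP, against 8.26, 8.90, 8.61 and 8.09 on those labelled CtrlGFP. All 4 Fezf2GFP arrays lay above all 4 CtrlGFP arrays, with a gap wider than the range within Fezf2GFP. The log2 fold change was 1.30 (SE 0.21, 95% interval 0.84 to 1.76, limma adjusted p = 0.0047). At 24 h, Nes read 10.58, 10.23 and 10.28 with Fezf2GFP and 10.11, 9.55 and 9.37 with CtrlGFP. These groups did not overlap either, and the log2 fold change of 0.69 (SE 0.24, adjusted p = 0.334) did not pass. Vim (1438118_x_at), by contrast in direction, averaged 14.56 ± 0.28 with Fezf2GFP and 14.72 ± 0.04 with CtrlGFP at 48 h (SD, n = 4 each). At 24 h it averaged 15.04 ± 0.08 with Fezf2GFP and 15.22 ± 0.09 with CtrlGFP (SD, n = 3 each). The 24 h arrays of Vim did not overlap, but the log2 fold changes of -0.16 at 48 h (adjusted p = 0.685) and -0.18 at 24 h (adjusted p = 0.75) did not pass. The 95% interval for this Vim probe set at 48 h was -0.47 to 0.16, which leaves out a rise of 1.30 as seen for Nes 1449022_at. For the dimmer Vim 1450641_at the interval was wider, -0.58 to 0.69.

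Fabp7, Slc1a3 and Ptprz1 encode proteins of the glial membrane and of lipid handling. Fabp7 (brain lipid binding protein) carries fatty acids and is a target of Notch signalling, Slc1a3 (GLAST) takes up glutamate, and Ptprz1 is a receptor tyrosine phosphatase that binds pleiotrophin and contactin. Slc1a3 (1452031_at) read 10.75, 11.23, 10.80 and 11.69 at 48 h on the arrays labelled Fezf2GFP, against 10.58, 9.73, 10.61 and 10.25 on those labelled CtrlGFP. Every Fezf2GFP value lay above every CtrlGFP value, the closest pair being 10.75 and 10.61. The log2 fold change of Slc1a3 was 0.83 (SE 0.24, 95% interval 0.30 to 1.35), and it did not pass (limma adjusted p = 0.0944). At 24 h it was 0.33 (adjusted p = 0.735), with overlapping arrays. Ptprz1 (1452284_at) read 13.67, 13.63, 13.49 and 13.997 with Fezf2GFP at 48 h and 13.39, 12.43, 12.72 and 13.68 with CtrlGFP. Its CtrlGFP arrays spread over more than 1 log2 unit and the highest of them reached into the Fezf2GFP range (log2 fold change 0.64, SE 0.23, adjusted p = 0.193). At 24 h, Ptprz1 read 13.15, 13.08 and 13.11 with Fezf2GFP and 12.61, 12.79 and 12.73 with CtrlGFP, groups that did not overlap, and its log2 fold change of 0.40 (adjusted p = 0.702) did not pass. Fabp7 (1450779_at) averaged 14.40 ± 0.53 with Fezf2GFP and 14.29 ± 0.40 with CtrlGFP at 48 h (SD, n = 4 each, adjusted p = 0.889). Its log2 fold changes of 0.11 at 48 h and 0.15 at 24 h were within the spread of the arrays, and that at 48 h turned to -0.08 without the 2 arrays that stand apart.

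Hopx encodes a short homeodomain protein that does not bind DNA itself, and in human cortex it marks the outer radial glia. Of the 10 genes it had the largest difference between the vectors, and the arrays labelled Fezf2GFP were the low ones. At 24 h Hopx (1428662_a_at) read 6.39, 5.70 and 5.21 with Fezf2GFP, against 8.85, 8.05 and 7.81 with CtrlGFP. At 48 h it read 4.11, 6.69, 5.15 and 6.01 with Fezf2GFP, against 7.48, 8.28, 8.82 and 6.51 with CtrlGFP. The 24 h groups stood more than 1 log2 unit apart, whereas at 48 h the highest Fezf2GFP array (replicate 2) lay above the lowest CtrlGFP array (replicate 4). The log2 fold change was -2.47 at 24 h (SE 0.66, 95% interval -3.89 to -1.05, limma adjusted p = 0.116). It was -2.28 at 48 h (SE 0.57, 95% interval -3.51 to -1.06, adjusted p = 0.0482), so that only the later time passed. The call at 48 h was kept when CtrlGFP 24 h replicate 1, CtrlGFP 48 h replicate 4 or Fezf2GFP 48 h replicate 2 was left out, and lost when any of the other 11 arrays was (adjusted p up to 0.127, log2 fold changes of -2.46 to -1.82). Without the 2 arrays that stand apart it was -2.11 (adjusted p = 0.0992).

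Aldoc and Ddah1 encode enzymes that stay high in astrocytes. Aldoc is the brain form of the glycolytic enzyme aldolase, and Ddah1 breaks down asymmetric dimethylarginine, an inhibitor of nitric oxide synthase. At 48 h Aldoc (1451461_a_at) read 13.35, 13.53, 12.82 and 13.36 on the arrays labelled Fezf2GFP, against 12.47, 12.74, 12.59 and 12.31 on those labelled CtrlGFP. Ddah1 (1429298_at) read 12.02, 12.73, 12.32 and 12.74 with Fezf2GFP, against 11.30, 11.86, 11.97 and 11.49 with CtrlGFP. Neither gene overlapped between the vectors, and for both the nearest arrays were less than 0.1 apart. Aldoc rose by 0.74 on the log2 scale (1.67-fold, SE 0.18, limma adjusted p = 0.0422) and Ddah1 by 0.80 (SE 0.20, 1.74-fold, adjusted p = 0.0448). At 24 h the arrays of both enzymes overlapped between the vectors. Aldoc read 13.48, 13.52 and 13.54 with Fezf2GFP and 13.72, 13.34 and 13.16 with CtrlGFP. Ddah1 read 13.01, 12.97 and 13.05 with Fezf2GFP and 13.14, 12.92 and 12.78 with CtrlGFP. The log2 fold changes at 24 h were 0.11 for Aldoc (95% interval -0.33 to 0.55, adjusted p = 0.877) and 0.06 for Ddah1 (95% interval -0.43 to 0.55, adjusted p = 0.943). Both calls at 48 h lie close to the threshold. The Aldoc call was kept in 4 of the 14 fits that left out 1 array (without CtrlGFP 24 h replicates 1 or 3, CtrlGFP 48 h replicate 2 or Fezf2GFP 48 h replicate 3), and the Ddah1 call in 3 (without CtrlGFP 24 h replicate 1, CtrlGFP 48 h replicate 3 or Fezf2GFP 48 h replicate 1). In the other fits the adjusted p reached 0.121 for Aldoc and 0.125 for Ddah1.

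**Figure D2:**
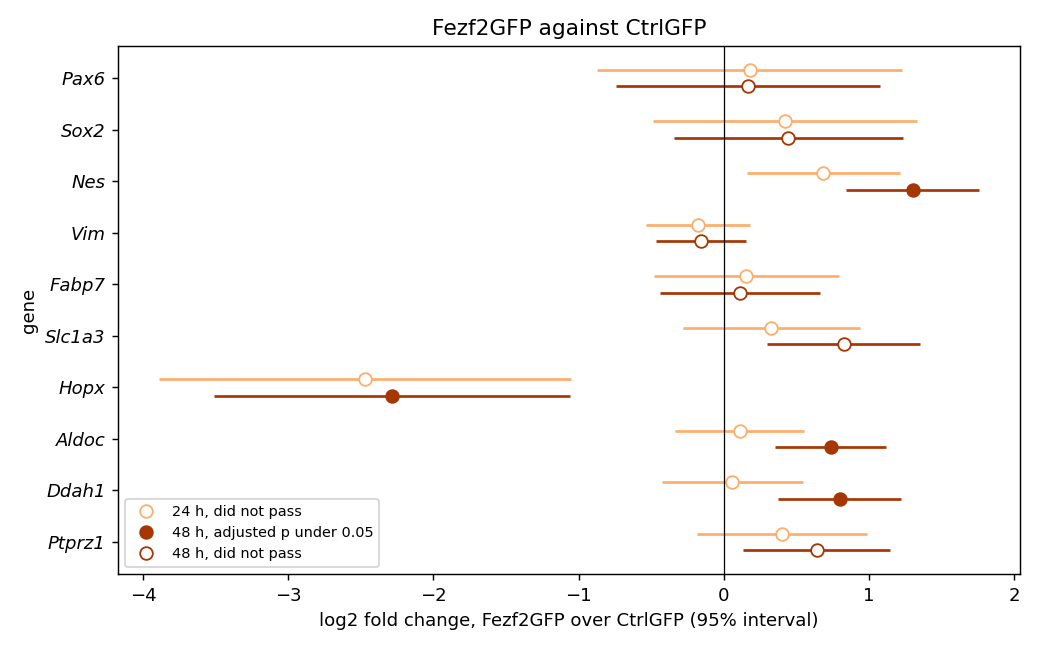
Log2 fold change of Fezf2GFP over CtrlGFP for the 10 genes at 24 h (light) and 48 h (dark), with 95% intervals from limma; filled points passed. At 48 h Nes (1.30), Ddah1 (0.80) and Aldoc (0.74) lie above 0 and Hopx (-2.28) below, while 0 of the 24 h points are filled.

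Because several genes are covered by more than 1 probe set, the comparison was repeated on all 20 tested probe sets, with p-values adjusted over 20367 probe sets. At 48 h, 16 of the 20 had log2 fold changes above 0, with a median of 0.69 beside 0.01 for all probe sets. In this fit 3 rose and 0 fell (limma), beside 1.77% of all probe sets called and 1.51% called higher: Nes 1449022_at (adjusted p = 0.0077), Ddah1 1454995_at (log2 fold change 0.93, adjusted p = 0.019) and Slc1a3 1443749_x_at (0.74, adjusted p = 0.0429). The arrays of 9 probe sets did not overlap, 8 higher and 1 lower, beside 7.07% of all probe sets (5.45% higher and 1.62% lower). All 3 Ddah1 probe sets were among the 8, with log2 fold changes of 0.80, 0.93 and 0.68. Ddah1 1454995_at read 12.11, 12.42, 12.23 and 12.58 with Fezf2GFP, against 11.62, 11.10, 11.72 and 11.19 with CtrlGFP, a wider gap than for the probe set chosen by its level. The 3 Slc1a3 probe sets gave 0.83, 0.74 and 1.08, and the 3 of Ptprz1 gave 0.64, 0.94 and 1.16. Slc1a3 1443749_x_at read 11.11, 10.94, 11.43 and 11.04 with Fezf2GFP, against 10.54, 10.24, 10.49 and 10.30 with CtrlGFP.

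The 2 Nes probe sets disagreed in part. Nes 1418289_at read 7.29, 8.15, 8.70 and 7.73 at 48 h with Fezf2GFP and 5.20, 8.18, 8.12 and 7.60 with CtrlGFP. Apart from the low value of CtrlGFP replicate 1, the arrays of this probe set lay within the same range, and its log2 fold change of 0.69 (SE 0.55) did not pass (limma adjusted p = 0.68). At 24 h it was 0.02. Both tested Nes probe sets were above 0 at 48 h, but 1 of the 2 passed. For 1418289_at the size rests on 1 array. The CtrlGFP arrays other than replicate 1 averaged 7.96, beside 7.97 for Fezf2GFP. In the mean over all 3 Nes probe sets, which includes the dim Nes 1453997_a_at that was not tested on its own, Nes at 48 h was 0.65 (adjusted p = 0.185) and did not pass. Both Hopx probe sets were below 0 at both times: Hopx 1451776_s_at read 6.22, 6.24, 6.52 and 5.83 at 48 h with Fezf2GFP, against 7.15, 6.74, 7.59 and 6.53 with CtrlGFP. All Fezf2GFP arrays of this second Hopx probe set lay below all CtrlGFP arrays at 48 h, by as little as 0.01 between the nearest. Its log2 fold change was -0.80 at 48 h (adjusted p = 0.165) and -1.07 at 24 h (adjusted p = 0.183). The 3 Vim probe sets gave -0.16, 0.06 and -0.09 at 48 h, none of which passed.

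**Figure D3:**
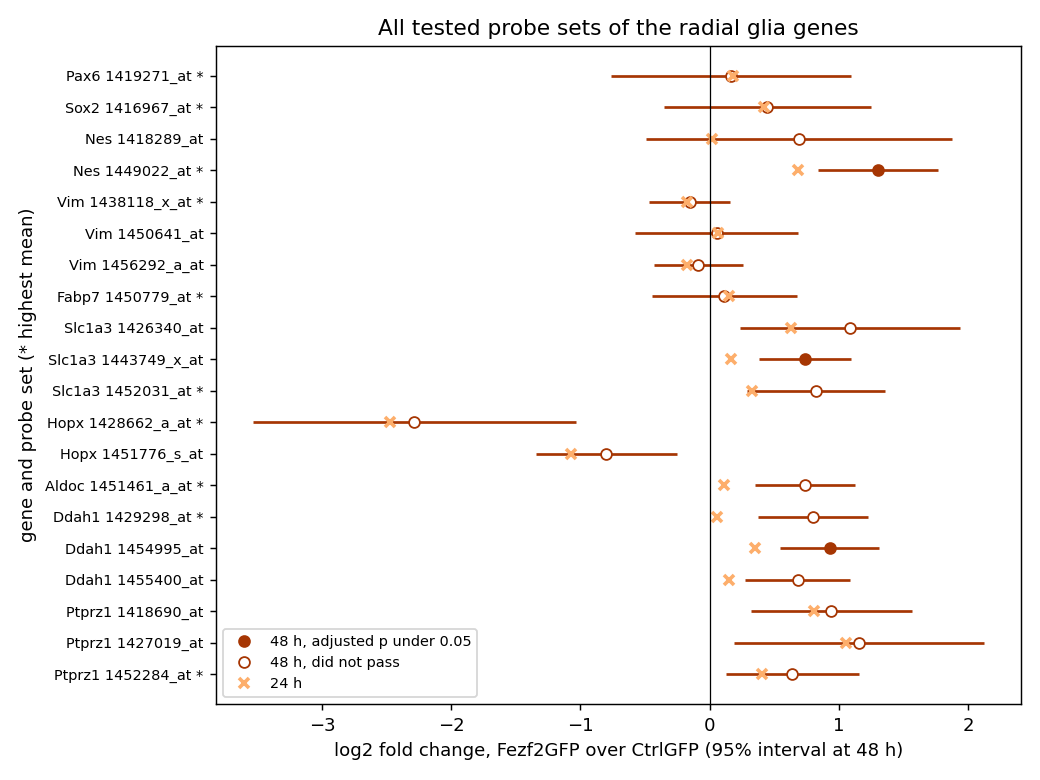
Log2 fold change of Fezf2GFP over CtrlGFP for the 20 tested probe sets of the 10 genes, points with 95% intervals for 48 h and crosses for 24 h; filled points passed over all probe sets, and stars mark the probe set with the highest mean. The probe sets of Slc1a3, Ddah1 and Ptprz1 lie on 1 side of 0, those of Nes differ (0.69 and 1.30 at 48 h), and both of Hopx lie below 0.

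Whether the difference between the vectors changed from 24 h to 48 h was tested as an interaction. None of the 10 genes passed (limma), beside 0.0971% of all genes tested. An unadjusted p under 0.05 was found for 509 of all 10295 genes and for 2 of the 10. These were Ddah1, whose log2 fold change was 0.74 larger at 48 h (SE 0.30, 95% interval 0.09 to 1.38, adjusted p = 0.96), and Aldoc, whose was 0.63 larger (SE 0.27, 95% interval 0.04 to 1.21, adjusted p = 0.987). For Nes the difference was 0.61 (95% interval -0.08 to 1.31, adjusted p = 0.998) and for Hopx 0.19 (95% interval -1.69 to 2.06). Calls at 48 h that were not made at 24 h are therefore not shown to differ between the times.

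The comparison of the times asks how the 10 genes stood in cells sorted 1 day later. With Fezf2GFP, 0 of the 10 passed (limma), beside 12.1% of all genes. An unadjusted p under 0.05 was found for 5 (Pax6, Nes, Vim and Ddah1 below 0, Ptprz1 above 0), beside 2517 of all 10295 genes. With CtrlGFP, Nes, Slc1a3, Aldoc and Ddah1 were lower at 48 h and 0 were higher, beside 12.6% of all genes (6.69% lower). The arrays of the 2 times did not overlap for 5 genes with Fezf2GFP, beside 26.2% of all genes. With CtrlGFP they did not overlap for 6, all lower at 48 h, beside 22.7% of all genes and 12.8% in that direction. With array weights, which ran from 0.21 to 4.90, 5 passed with Fezf2GFP, and 2 passed without the 2 arrays that stand apart. The 12.1% belongs to the main fit, and shares of all genes under these 2 settings are not given here. The median log2 fold change of the 10 genes was -0.46 with Fezf2GFP and -0.83 with CtrlGFP, beside -0.01 and -0.02 for all genes tested in the same order. With both vectors 9 of the 10 were below 0, and Ptprz1 was above 0. These comparisons share the arrays of each vector with the comparisons above, so the 48 h arrays of CtrlGFP enter both the higher values with Fezf2GFP and the falls with CtrlGFP.

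For the genes that fell with CtrlGFP the values with both vectors stand side by side. The log2 fold change of Ddah1 was -0.56 with Fezf2GFP (limma adjusted p = 0.115) and -1.30 with CtrlGFP (SE 0.21, adjusted p = 0.0015). Nes had -0.60 with Fezf2GFP (adjusted p = 0.119) and -1.21 with CtrlGFP (SE 0.23, adjusted p = 0.0037). Aldoc had -0.25 with Fezf2GFP (adjusted p = 0.491) and -0.88 with CtrlGFP (SE 0.19, adjusted p = 0.0087). With Fezf2GFP all 48 h arrays of Nes and Ddah1 lay below all 24 h arrays, and with CtrlGFP this held for Nes, Ddah1, Aldoc and Slc1a3. Slc1a3 had -0.44 with Fezf2GFP (adjusted p = 0.351) and -0.93 with CtrlGFP (SE 0.26, adjusted p = 0.0344). The Slc1a3 call with CtrlGFP was lost when any 1 of CtrlGFP 24 h replicates 1, 2 and 3 or CtrlGFP 48 h replicates 2 and 4 was left out, with adjusted p of 0.111, 0.0726, 0.0811, 0.0646 and 0.0754 in that order. Without both arrays that stand apart it was -0.67 (adjusted p = 0.168). In all, 7 genes fell further with CtrlGFP by size. The test of that difference is the interaction above, which no gene passed.

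The log2 fold changes of the transcription factors and of Vim over time lay close together with both vectors. Pax6 had log2 fold changes of -1.29 with Fezf2GFP (95% interval -2.28 to -0.31, limma adjusted p = 0.0881) and -1.28 with CtrlGFP (95% interval -2.26 to -0.30, adjusted p = 0.0886). Every 48 h array of Pax6 lay below every 24 h array of its vector. Sox2 had -0.76 with Fezf2GFP and -0.78 with CtrlGFP, and Vim -0.48 with Fezf2GFP (adjusted p = 0.0644) and -0.50 with CtrlGFP (adjusted p = 0.0519). None of these chosen probe sets passed. Among the 20 probe sets, with p-values adjusted over all probe sets, 1 fell with Fezf2GFP, beside 7.81% of all probe sets called and 3.56% called lower, and 8 fell with CtrlGFP, beside 8.46% called and 4.31% called lower. The probe set that fell with Fezf2GFP was Vim 1456292_a_at, with -0.70 with Fezf2GFP (adjusted p = 0.0244) and -0.79 with CtrlGFP (adjusted p = 0.0122). Vim 1450641_at had -1.03 with Fezf2GFP (limma adjusted p = 0.0687) and -1.02 with CtrlGFP (adjusted p = 0.0677), larger than the chosen probe set, and did not pass. Pax6 passed with Fezf2GFP without Fezf2GFP 48 h replicate 4 (adjusted p = 0.0359) or without CtrlGFP 48 h replicate 2 (adjusted p = 0.0172). The chosen probe set of Vim passed with both vectors without Fezf2GFP 48 h replicate 4 (adjusted p = 0.0483 with Fezf2GFP and 0.0495 with CtrlGFP), and with CtrlGFP without Fezf2GFP 48 h replicate 3 (adjusted p = 0.0212). Ptprz1 had 0.58 with Fezf2GFP (95% interval 0.04 to 1.13, adjusted p = 0.174) and 0.35 with CtrlGFP (adjusted p = 0.473). Hopx had -0.28 with Fezf2GFP and -0.46 with CtrlGFP, both with intervals wider than 2 log2 units.

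**Figure D4:**
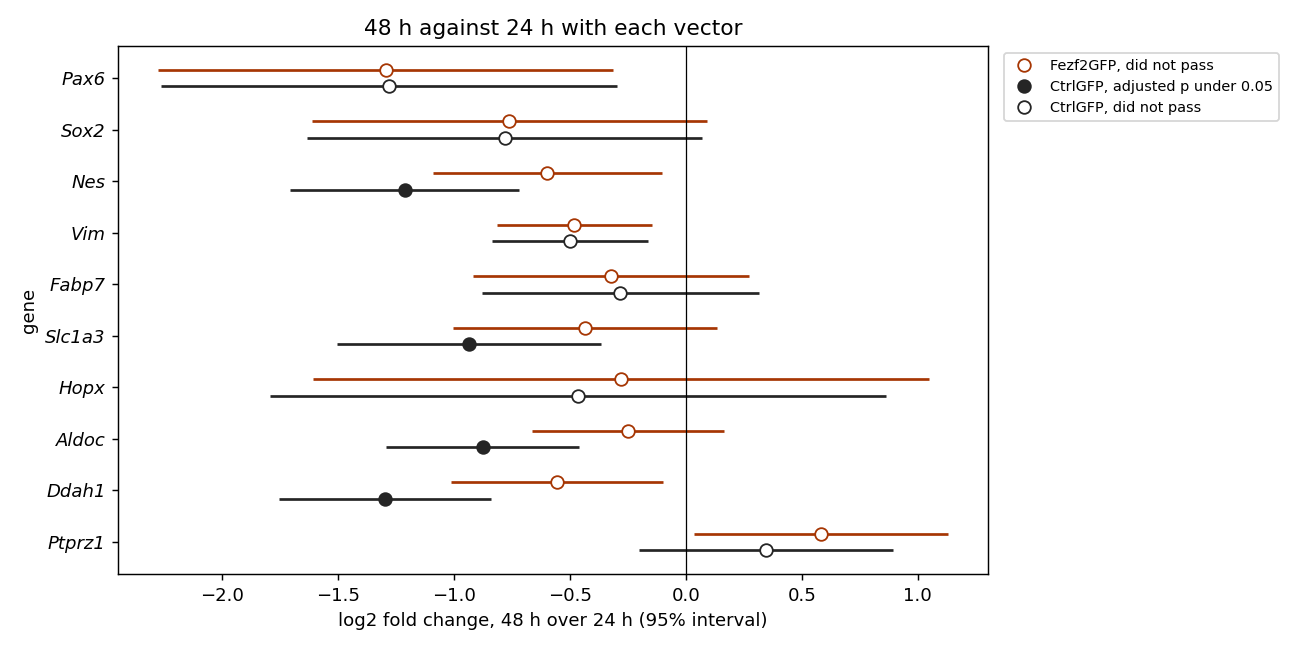
Log2 fold change of 48 h over 24 h for the 10 genes with Fezf2GFP and with CtrlGFP, with 95% intervals from limma; filled points passed. With Fezf2GFP 0 passed, and with CtrlGFP Nes, Slc1a3, Aldoc and Ddah1 passed, at -1.30 to -0.88.

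A further 24 genes of radial glia and the ventricular zone were read beside the 10, and 23 of them were tested. At 48 h, 0 of the 23 passed between the vectors (limma), and 7 had an unadjusted p under 0.05, beside 1569 of all 10295 genes. Of the 23, 19 were above 0, with a median log2 fold change of 0.30. At 24 h the median was 0.23 and 1 gene fell, Mfge8, which encodes a secreted bridging protein. Mfge8 averaged 10.32 ± 0.25 with Fezf2GFP and 11.61 ± 0.41 with CtrlGFP (SD, n = 3 each), without overlap (log2 fold change -1.29, SE 0.27, limma adjusted p = 0.0377). Over time, 5 of the 23 fell with Fezf2GFP (Sox1, Prom1, Gli3, Notch1 and Fgfr3) and 9 fell with CtrlGFP, which were these and Sox9, Sox3, Phgdh and Pdpn. Of all genes, 5.67% were called lower over time with Fezf2GFP and 6.69% with CtrlGFP. Sox3, a relative of Sox2, had log2 fold changes of -1.91 with Fezf2GFP (adjusted p = 0.0509) and -2.39 with CtrlGFP (adjusted p = 0.0166), the largest fall of the 9. Notch1, the receptor that holds progenitors back from differentiation, had -0.95 with Fezf2GFP (adjusted p = 0.007) and -1.39 with CtrlGFP (adjusted p = 0.00062). The medians over the 23 genes were -0.52 with Fezf2GFP and -0.87 with CtrlGFP. The 23 genes and the 10 thus both had medians below 0 over time with each vector.

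**Figure D5:**
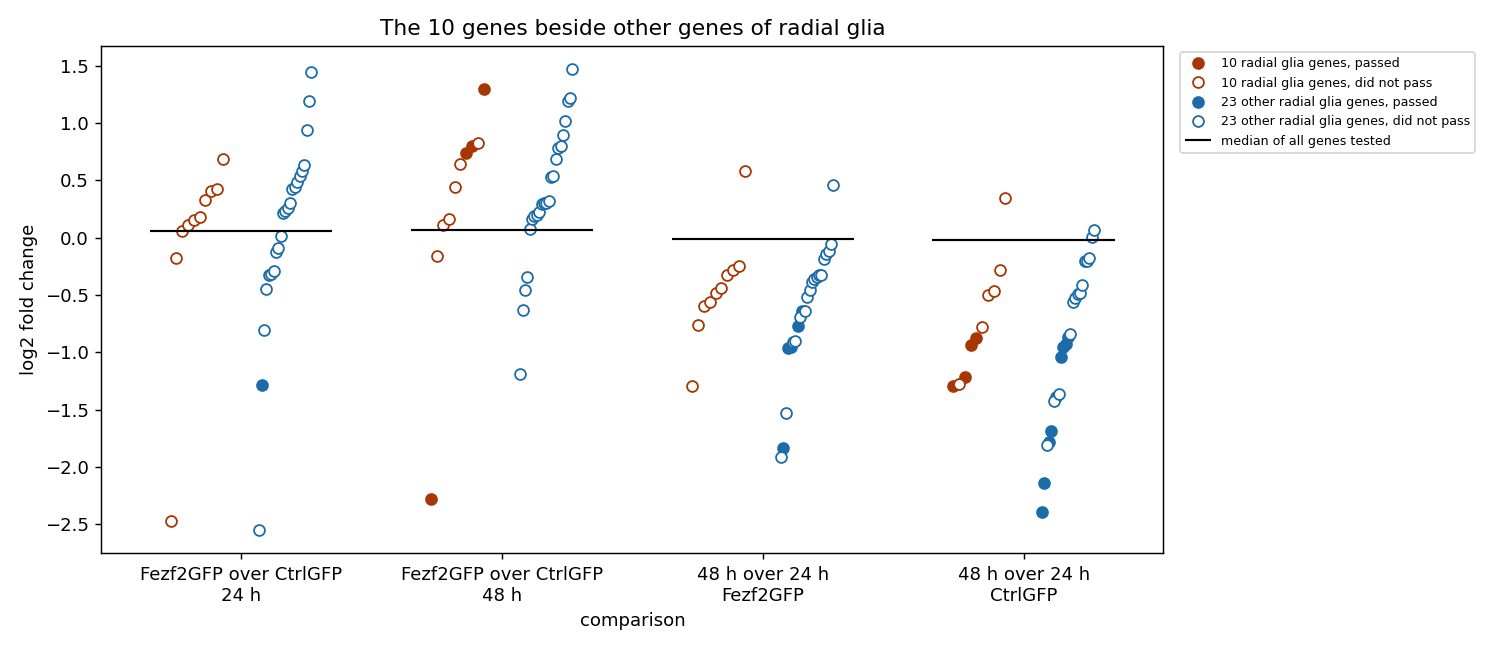
Log2 fold changes of the 10 genes (orange) and of 23 other genes of radial glia and the ventricular zone (blue) in each of 4 comparisons; each point is a gene, filled points passed, and the black line is the median of all genes tested. At 48 h, 8 of 10 and 19 of 23 points lie above 0 between the vectors, and over time most lie below it with both vectors.

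Relatives and partners of the 10 genes (other aldolases, fatty acid binding proteins, neurofilaments, glutamate transporters and Ptprz1 ligands) numbered 11 tested. Of these 1 rose at 24 h, Fabp3, the heart-type relative of Fabp7, which averaged 6.72 ± 1.08 with Fezf2GFP and 4.53 ± 0.53 with CtrlGFP (SD, n = 3 each, log2 fold change 2.18, SE 0.45, limma adjusted p = 0.0351). None passed at 48 h (3 with an unadjusted p under 0.05, beside 1569 of all 10295 genes). Over time Ina, Fabp3 and Slc1a1, which neurons express, rose with both vectors, by log2 fold changes of 1.85, 2.18 and 1.47 with Fezf2GFP and 2.84, 3.85 and 1.36 with CtrlGFP, in the order named. These 3 relatives, named because they passed, had fold changes above 0 over time where Nes, Fabp7 and Slc1a3 had fold changes below 0. Of the 11 relatives, 8 were above 0 and 3 below 0 with each vector. Their median log2 fold change was 0.10 with Fezf2GFP and 0.19 with CtrlGFP. Among all 10295 genes tested, 657 rose over time with Fezf2GFP and 605 with CtrlGFP.

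Markers of other cells were read beside these results. Of 12 intermediate progenitor genes 1 fell at 48 h, Gadd45g, a stress-induced growth arrest gene, which averaged 10.22 ± 0.49 with Fezf2GFP and 11.79 ± 0.41 with CtrlGFP (SD, n = 4 each, log2 fold change -1.57, SE 0.25, limma adjusted p = 0.0044). Of 13 neuronal genes, 8 GABAergic genes and 12 genes of cell division, 0 passed between the vectors at either time. Those with an unadjusted p under 0.05 numbered 5, 4 and 0 at 24 h and 4, 1 and 0 at 48 h, in that order. Of all 10295 genes tested, 911 had such a p at 24 h and 1569 at 48 h. In the same order of lists, 11, 8 and 4 genes were above 0 at 24 h and 10, 6 and 3 at 48 h. The median log2 fold changes were 0.39, 1.09 and -0.06 at 24 h and 0.24, 0.68 and -0.15 at 48 h. For all genes tested the median was 0.06 at each time. Over time, cell division genes fell with both vectors, 9 of 12 with Fezf2GFP (median log2 fold change -1.52) and 10 of 12 with CtrlGFP (-1.58). Of 12 intermediate progenitor genes, 6 fell with Fezf2GFP and 8 with CtrlGFP, while 4 of 13 neuronal genes rose with Fezf2GFP and 5 with CtrlGFP. Of all 10295 genes tested, 584 fell and 657 rose with Fezf2GFP, and 689 fell and 605 rose with CtrlGFP. With Fezf2GFP the summed level of the cell division list, on the log2 scale, ranged from 15.145 to 15.56 at 48 h and from 16.34 to 16.70 at 24 h. With CtrlGFP it ranged from 15.27 to 15.90 at 48 h and from 16.50 to 16.67 at 24 h. The neuronal list went the other way, with 17.03 to 17.32 at 48 h and 16.64 to 16.68 at 24 h with Fezf2GFP, and 16.735 to 17.04 at 48 h and 16.13 to 16.57 at 24 h with CtrlGFP. The part of these lists in the falls of Nes, Slc1a3, Aldoc and Ddah1 was not tested.

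Astrocytes express Aldoc, Slc1a3, Fabp7 and Ddah1 as well, so their markers were read beside the differences at 48 h. Of 10 genes of oligodendrocyte precursors and astrocytes, 5 were tested, and the markers Sox10, Cspg4, Gfap and S100b lay below the dim level on every array. Pdgfra, a marker of oligodendrocyte precursors, was above the dim level on some arrays, but on too few to be tested. Aldh1l1, an astrocyte enzyme of folate metabolism that radial glia also express, averaged 9.89 ± 0.13 with Fezf2GFP and 8.49 ± 0.38 with CtrlGFP at 48 h (SD, n = 4 each) and rose by 1.41 (SE 0.23, limma adjusted p = 0.0051). Of the 5 tested genes, Aldh1l1 alone passed at 48 h. All 5 had an unadjusted p under 0.05, beside 1569 of all 10295 genes, with 3 of the 5 above 0 and 2 below 0. Those above 0 beside Aldh1l1 were the gap junction gene Gja1 (log2 fold change 0.74, adjusted p = 0.0768) and the water channel gene Aqp4 (1.55, adjusted p = 0.178). All CtrlGFP arrays of Aqp4 at 48 h lay below the dim level, so its difference is bounded only as at least 1.17-fold. The genes below 0 were the oligodendrocyte lineage factors Olig1 (-1.46, adjusted p = 0.316) and Olig2 (-1.40, adjusted p = 0.0799). At 48 h the arrays of 4 of the 5 did not overlap between the vectors, beside 9.07% of all genes. Aldh1l1, Gja1 and Aqp4 were higher with Fezf2GFP on all arrays, and Olig2 was lower. The summed level of the list, on the log2 scale, ranged from 11.29 to 11.57 with Fezf2GFP and from 10.57 to 11.27 with CtrlGFP at 48 h. At 24 h it ranged from 12.35 to 12.53 with Fezf2GFP and from 11.68 to 11.88 with CtrlGFP. This sum, in which the brightest genes weigh most, did not overlap between the vectors at either time and was higher with Fezf2GFP, while Olig1 and Olig2 were below 0 at 48 h. The part of these genes in the rises of Aldoc and Ddah1 was not tested. Over time with CtrlGFP, Olig1 rose at least 18.3-fold (adjusted p = 0.0012), since all its 24 h arrays lay below the dim level, Olig2 rose by 1.93 on the log2 scale (adjusted p = 0.0091) and Gja1 fell by 1.74 (adjusted p = 0.00038). Over time with Fezf2GFP, Olig1 had 2.23 (adjusted p = 0.0629) and Olig2 0.42 (adjusted p = 0.628), while Aldh1l1 rose by 1.38 (adjusted p = 0.0035) and Gja1 fell by 1.70 (adjusted p = 0.00055).

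Of 11 markers of vessels, microglia and blood on the array, 8 lay below the dim level on every array, Pecam1, Kdr, Csf1r and Cx3cr1 among them, and 0 of the 3 tested passed between the vectors (0 with an unadjusted p under 0.05). The summed level of the 11 ranged from 8.96 to 10.21 with Fezf2GFP and from 8.20 to 9.49 with CtrlGFP at 48 h. The median log2 fold change of the 3 tested was 0.38 at 24 h and 1.02 at 48 h. Of 8 markers of choroid plexus and cortical hem, 3 were tested and 0 passed between the vectors. An unadjusted p under 0.05 was found for 1 at 24 h, beside 911 of all 10295 genes, and for 0 at 48 h. Over time 1 of the 3 rose with both vectors: Rspo3, which encodes a secreted enhancer of Wnt signalling, by 3.19 on the log2 scale with Fezf2GFP (adjusted p = 5.0e-06, rank 3 of all genes by p) and by 4.19 with CtrlGFP (adjusted p = 5.1e-07, rank 1). The summed level of this list ranged from 9.53 to 10.21 at 48 h and from 6.97 to 10.10 at 24 h with Fezf2GFP. With CtrlGFP it ranged from 9.80 to 10.48 at 48 h and from 6.34 to 6.67 at 24 h. The markers Folr1, Kl, Lmx1a, Wnt3a and Wnt2b lay below the dim level on every array. Ttr, a choroid plexus marker that was tested, varied widely between arrays. At 24 h it averaged 5.05 ± 4.24 with Fezf2GFP and 2.67 ± 0.11 with CtrlGFP (SD, n = 3 each). At 48 h it averaged 4.52 ± 2.69 with Fezf2GFP and 4.59 ± 3.23 with CtrlGFP (SD, n = 4 each). The part of Rspo3, Olig1, Olig2 and Gja1 in the falls of Nes, Slc1a3, Aldoc and Ddah1 over time was not tested.

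The genes whose profile over the 14 arrays was most like that of a called gene were found as those with the smallest root mean square difference of log2 levels, each profile centred on its own mean. For Nes these were Kbtbd11 (0.246), Smad3 (0.251) and Ebf4 (0.263), where the median gene stood at 0.824. For Aldoc they were Pfkl (0.186), Ctdspl (0.222) and Kcnj10 (0.223), beside a median of 0.579. For Ddah1 they were Pea15a (0.198), Jam2 (0.228) and Ntn4 (0.250), beside a median of 0.691. Hopx had no gene as close: Rai2 (0.691), Srebf1 (0.801) and 3110009E18Rik (0.870) came nearest, beside a median of 1.503. Rai2 and Srebf1 were lower with Fezf2GFP at both times, with log2 fold changes of -2.78 and -2.70 at 24 h and -2.40 and -1.72 at 48 h, all of which passed. The third, 3110009E18Rik, had -0.76 at 24 h (limma adjusted p = 0.718) and -1.41 at 48 h (adjusted p = 0.177) and did not pass. Since likeness was measured on the same 14 arrays, differences between the vectors included, it describes these arrays only. The fold changes of genes picked by it are not independent of those of the called gene.

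The deviations of the 10 genes from the mean of their group differed between arrays. On Fezf2GFP 48 h replicate 4 all 10 lay above the mean of their group, with a median deviation of 0.37 and the largest for Pax6 (0.88). On Fezf2GFP 48 h replicate 1, 1 of the 10 (Aldoc) lay above it, with a median of -0.40. On CtrlGFP 48 h replicate 2, 1 of the arrays that stand apart, 5 lay above it, and Pax6 was 1.37 below. On the 4 CtrlGFP 48 h arrays 3 to 8 of the 10 lay above it. The 24 h arrays of Fezf2GFP had the narrowest range of median deviations of the 4 groups, -0.10 to 0.06. Over all genes tested, the median deviation was 0.12 on Fezf2GFP 48 h replicate 4, where 64.4% of genes lay above the mean of their group, and -0.0049 on replicate 1, where 49.1% did.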

How the data were processed

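The deposited values are log2 levels of Affymetrix probe sets that the authors processed with GCRMA, per the submitters' processing notes; its version, its settings and a genome build are not given in these sources. Background correction and normalization are therefore those of the authors, and the number of arrays and the signal over background limit the precision. Of 45037 probe sets, 34945 had 1 symbol in the platform annotation, 932 several and 9160 none. Each gene took its probe set with the highest mean; 10295 genes above the dim level of 4 on at least 3 of 14 arrays were tested and 7898 set aside. One group-means model covered all 14 arrays (limma 3.58.1, lmFit and eBayes, in R 4.3.3, 10 residual degrees of freedom), with Benjamini-Hochberg adjustment and a threshold of 0.05. Errors of levels are SD, those of fold changes SE. Genes named are the 10, Fezf2, the 3 genes most like each called gene, and up to 3 called genes per list between the vectors; others were named after their values were seen. The 10 genes and the lists were chosen with earlier results of these data known. Alternatives covered the filter, normalization, probe sets, array weights, the prior, the samples fitted, a replicate block, gene span and each array left out. Promoters are RefSeq windows (GRCm38.p6). The fit was tested on simulated data.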

Additional observations from a re-analysis of the deposited data

How the results depend on the processing

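Signal over background limits the 11 dim probe sets, and 3 or 4 arrays a group limit every call. The number of the 10 genes that passed at 48 h, 4, became 1 with no filter on dim probe sets, with only the groups compared in the fit, and when adjusted over all probe sets, and 2 with quantile normalization or the mean of all probe sets; leaving out 1 array each gave 1 to 4. At 24 h, 0 passed, and 2 with array weights. Shares of all genes under the alternatives are not given here, so counts under them show only how the calls depend on the processing. With Fezf2GFP over time 0 passed, and 1 with no filter, quantile normalization, only the groups compared or a trended prior, 2 with the mean of all probe sets or without the 2 arrays that stand apart (chosen after the data were seen), and 5 with array weights; leaving out 1 array each gave 0 to 2. Nes at 48 h passed under 25 of 26 alternatives, all but the mean of all probe sets. Those 25 each took the Nes probe set with the highest mean, so they do not test that choice. At 48 h Aldoc passed under 11, Ddah1 under 9 and Hopx under 7. The falls of Nes, Aldoc and Ddah1 with CtrlGFP passed under all 26. Replicate numbers are shared by the groups. Of same-numbered pairs of arrays from different groups, 5 of 19 deviated together with a correlation over 0.1 (-0.40 to 0.32), and 23 of 54 differently numbered pairs did. Most same-numbered pairs differ in time, so these counts cannot tell whether the vectors were paired at 1 time. Same-numbered arrays of the 2 vectors correlated at 0.32, 0.22 and -0.01 at 24 h. At 48 h they correlated at -0.06, 0.29, 0.02 and 0.27. With the replicate block the count at 48 h was 1 (Nes). Signs turned for small fold changes. With median centring the interaction of Sox2 was -0.0085 and of Vim -0.0087. With array weights Pax6 at 48 h was -0.25, the interaction of Sox2 -0.22 and Hopx over time with Fezf2GFP 0.25. With the trend over gene span removed (span known for 99.7% of genes), Ddah1 at 24 h was -0.22. Without the 2 arrays that stand apart, Pax6 was -0.066 at 24 h and -0.29 at 48 h, Fabp7 at 48 h -0.081 and the interaction of Sox2 -0.10. The causes of these turns were not tested. Leaving out 1 array each gave Aldoc -0.014 to 0.27, Ddah1 -0.022 to 0.16 and Pax6 -0.066 to 0.45 at 24 h. It gave Fabp7 -0.081 to 0.37 and Pax6 -0.29 to 0.40 at 48 h, and Hopx -0.68 to 0.18 over time with Fezf2GFP. For the interaction it gave Fabp7 -0.23 to 0.22, Hopx -0.24 to 0.65, Pax6 -0.47 to 0.23, Sox2 -0.31 to 0.25 and Vim -0.050 to 0.15.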
